A study of Mus musculus with 26 samples.

Results

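The 200 transcripts that took the most reads in NSN oocytes, out of 38540 counted, are described here in NSN oocytes, in SN oocytes and in 1 intermediate oocyte. They were chosen on the data themselves: the counts of each oocyte were divided by its total and scaled to CPM (the counts in a library of 1000000), CPM was averaged over the 9 NSN oocytes, and the 200 highest rows were kept. Their level in NSN oocytes is therefore a description, and because a choice on high NSN values favours transcripts that are lower elsewhere, the results below are also given for lists chosen in other ways. Abundance means a share of reads, since the transcript lengths needed to compare levels between transcripts are not in the count table.

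Single fully grown germinal vesicle (GV) oocytes came from 2 wildtype C57Bl6/Babr mice of 12 weeks, and no agent or transgene was used beyond the Hoechst dye with which their nuclei were scored. The letter C or D that opens each label was read as the animal, which the labels do not spell out, so every result by mouse below rests on that reading. NSN oocytes had no Hoechst ring around the nucleolus (9 oocytes, 5 of mouse C and 4 of mouse D), SN oocytes had a complete ring (16 oocytes, 9 of mouse C and 7 of mouse D), and the intermediate oocyte, from mouse D, had a partial ring. Cumulus cells had been stripped before freezing, polyadenylated RNA was amplified from each oocyte, and reads were counted over an assembled oocyte transcriptome. With 2 mice, the p-values measure the spread between oocytes of these animals.

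As background, NSN and SN are the non-surrounded and surrounded nucleolus configurations of the GV oocyte. Transcription is active in NSN oocytes and falls silent by the SN stage, after which the egg relies on stored maternal RNA until the embryonic genome is switched on. The most abundant RNAs of a grown oocyte are known to include those for the egg coat (the zona pellucida), for the maternal protein complexes beneath the cell membrane and for oocyte-specific gene families. A stored RNA can be kept, degraded, or shortened or lengthened at its poly(A) tail, and a capture on oligo-dT beads also registers changes of the tail.

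Total counts ranged from 1886716 to 2983344 in NSN oocytes and from 1358383 to 3647827 in SN oocytes, and the intermediate oocyte had 2163635. No oocyte had fewer than 333 counts of any of the 200 transcripts, so all 200 passed the filter on low counts, and counting error was small beside the differences described (median counting coefficient of variation 2.01% in NSN and 2.19% in SN oocytes). The protocol has no molecular identifiers, so this counting error treats each read as a molecule. Gene symbols are given below for 6 of the 200. The defining oocyte gene Zp3 was one of them, present in every oocyte, and no marker of granulosa, cumulus or immune cells was among the names used here, so reads from such cells were not assessed.

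The 200 transcripts held a similar share of the library in every oocyte, and the mean share was slightly smaller in SN oocytes. In NSN oocytes they took 25.6% to 28.8% of the counts (median 27.2%, mean 27.2% ± 1.19, SD, n = 9), and in SN oocytes 24.8% to 28.3% (median 25.9%, mean 26.1% ± 0.840, SD, n = 16). The ranges overlapped over most of their width. The intermediate oocyte, at 27.2%, lay at the NSN median. Lists chosen in the NSN oocytes of 1 mouse and read in the other gave the same order: the 200 chosen in mouse C took 26.7% ± 1.51 (SD, n = 4) of NSN and 26% ± 0.477 (SD, n = 7) of SN libraries of mouse D, and those chosen in mouse D took 27.3% ± 0.916 (SD, n = 5) of NSN and 26.1% ± 0.941 (SD, n = 9) of SN libraries of mouse C.

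The difference sat at the very top of the list. The 10 most abundant of the 200 took 6.22% ± 0.504 (SD, n = 9) of NSN and 5.21% ± 0.401 (SD, n = 16) of SN libraries, and 5.94% of the intermediate library. Since those 10 had been chosen in NSN oocytes, the test was made on the 10 transcripts that were highest in each oocyte itself, whichever they were. These held 5.48% to 7.32% of NSN libraries (median 6.18%, mean 6.38% ± 0.591, SD, n = 9) and 4.85% to 6.21% of SN libraries (median 5.31%, mean 5.46% ± 0.410, SD, n = 16), with 6.05% in the intermediate oocyte. The mean was lower in SN oocytes by 0.928 percentage points (two-sided exact permutation test, p = 0.000137), and the ranges overlapped between 5.48% and 6.21%. The difference was -0.699 points within mouse C (two-sided exact permutation test, p = 0.0360, n = 5 and 9) and -1.22 points within mouse D (exact permutation p = 0.00303, the smallest that 330 splits can give, n = 4 and 7), and -0.867 points against the 6 SN oocytes with totals inside the NSN range (p = 0.00979).

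With longer lists the gap did not grow in proportion. Each oocyte's own 50 highest transcripts took 14.7% ± 0.856 (SD, n = 9) of NSN and 13.6% ± 0.629 (SD, n = 16) of SN libraries, a difference of -1.15 points (two-sided exact permutation test, p = 0.000838), and the own 100 gave -1.07 points (p = 0.00597). For the own 200 the difference was -0.744 points and did not pass the threshold (exact permutation p = 0.0656), from 27.4% ± 1.13 (SD, n = 9) to 26.7% ± 0.797 (SD, n = 16). For the own 500 it was -0.225 points (p = 0.608). The tests at 10 and 50 transcripts were chosen after seeing the data, and the 5 lengths together give Benjamini-Hochberg adjusted values of 0.000683, 0.00209, 0.00995, 0.0820 and 0.608, from the shortest to the longest list.

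**Figure D1:**
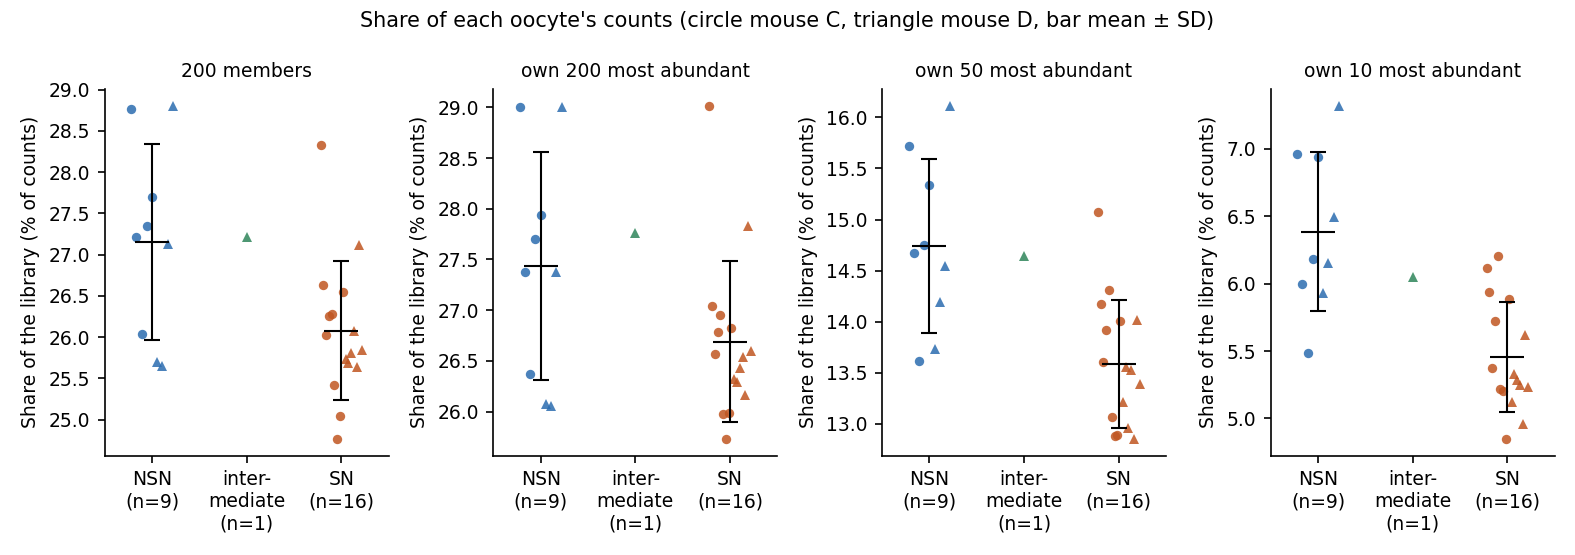
Share of each oocyte's counts, in percent of its total (y axes, which do not start at 0), held by the 200 transcripts and by the oocyte's own 200, 50 and 10 most abundant transcripts, for NSN, intermediate and SN oocytes. Each point is an oocyte and bars give mean ± SD; the own 10 took 5.48% to 7.32% in NSN and 4.85% to 6.21% in SN oocytes, while the ranges for the own 200 overlapped almost fully.

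The membership of the list was largely kept. Of the 200 transcripts, 182 (91.0%) were also among the 200 highest by mean SN level, and 170 (85%) were among the 200 highest of the intermediate oocyte. For comparison, lists drawn from the NSN oocytes of mouse C and of mouse D alone shared 180 of 200 (90.0%). In single NSN oocytes, 171 to 183 of the 200 were within that oocyte's own 200 (median 179), against 159 to 181 in SN oocytes (median 171). The list was drawn from these same NSN oocytes, which favours them, so the gap between the stages is a description only. Across the 26 oocytes, 99 transcripts never left the own 200, and only 1 was in the own 200 of no SN oocyte. The order inside the list was also kept, with a Spearman correlation of 0.919 between the NSN and SN mean levels. Single oocytes are noisier than a mean. Against the NSN mean, the intermediate oocyte had 0.870, and single SN oocytes had 0.785 to 0.912 (median 0.854). Single NSN oocytes, each set against the mean of the other NSN oocytes, had 0.836 to 0.950 (median 0.885). Each value is over 200 transcripts that share libraries and lengths. Of the 18 transcripts that dropped out of the SN list, 16 had an NSN rank beyond 150, and 17 of the 18 that entered it came from within NSN rank 300, so the exchange was mostly at the lower edge.

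That edge is narrow. Rank 199, TCONS_00017604, had 579 ± 87.5 CPM (SD, n = 9) in NSN oocytes, and rank 200, Nobox, had 577 ± 102 CPM. Just outside, TCONS_00033276 had 576 ± 33.8 CPM and TCONS_00025746 had 574 ± 95.6 CPM. At the other end, rank 1 stood at 8523 CPM, and the members span a wide range of levels within 1 list.

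At the top of that range, the most abundant transcript, TCONS_00015332, ranged from 6522 to 10882 CPM in NSN oocytes (median 8272) and from 4945 to 8102 CPM in SN oocytes (median 6160). The groups overlapped, with 9 of 16 SN oocytes below the lowest NSN oocyte and the intermediate oocyte at 8133 CPM. Its log2 fold change from NSN to SN was -0.38 (SE 0.102, edgeR's quasi-likelihood test, Benjamini-Hochberg adjusted p = 0.0109). The second, TCONS_00088972, ranged from 5372 to 11588 CPM in NSN (median 7537) and from 5044 to 8162 CPM in SN oocytes (median 5913), a log2 fold change of -0.42 (standard error 0.126, edgeR adjusted p = 0.0239). For the most abundant transcript the values were -0.32 within mouse C (adjusted p = 0.198) and -0.45 within mouse D (adjusted p = 0.0593), and for the second -0.35 (adjusted p = 0.199) and -0.50 (adjusted p = 0.0979), so neither was called in 1 mouse alone. Against the 6 SN oocytes with totals inside the NSN range, both calls were also lost, at -0.33 (edgeR adjusted p = 0.123) and -0.42 (adjusted p = 0.146). Without any 1 of the NSN oocytes C-8, C-12, D-30 and D-34 the adjusted p of TCONS_00088972 passed 0.05, up to 0.0736. The third, TCONS_00075578, had 6070 to 8696 CPM in NSN (median 7857) and 5387 to 8398 CPM in SN oocytes (median 6556), and its log2 fold change of -0.15 did not pass the test (adjusted p = 0.264).

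Most of the 200 transcripts changed little. The log2 fold change was under 0.2 in size for 121 of 200 (60.5%), against 42.9% of all 16657 transcripts tested, and under 0.5 for 190 (95%), against 78.4%. None passed 1, and the values ran from -0.86 to 0.69 around a median of 0.05. For 138 (69.0%) the whole 95% interval lay between -0.5 and 0.5, against 30.1% of all transcripts tested. The next 200 transcripts in NSN rank had 73.5%, so the narrow intervals were shared with abundant transcripts just below the list. The narrowest of those intervals belonged to TCONS_00058800. It had 1398 to 1715 CPM in NSN oocytes (median 1514), 1252 to 1721 CPM in SN oocytes (median 1555) and 1552 CPM in the intermediate oocyte, and a log2 fold change of 0.04 (95% interval -0.10 to 0.19). Its levels in both stages covered nearly the same range.

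A minority of the 200 did differ between the stages. In edgeR's quasi-likelihood test over all 16657 transcripts, 45 of the 200 differed at an adjusted p under 0.05 (22.5%), against 13.5% of all transcripts tested. Of these, 17 were lower in SN (8.5%, against 8.07% of all) and 28 were higher (14%, against 5.41% of all). The next 200 in NSN rank also had 45 called (22.5%), 7 lower and 38 higher. The excess of calls over all transcripts was therefore shared with transcripts just below the list. The NSN and SN ranges overlapped for all 45 called members of the list. Overlap was not counted over all transcripts, so it is not a trait of the list. The median log2 fold change was -0.40 among the 17 and 0.37 among the 28, with 5 below -0.5 and 5 above 0.5.

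The balance between higher and lower depended on the scaling and on how the list was drawn. With scaling by library totals alone, 28 were lower and 22 higher, against 9.45% and 3.50% of all transcripts, so the share of higher calls went from 62.2% to 44.0%. Single oocytes also moved the count of falls, which was 31 without the SN oocyte C-13, 26 without the NSN oocyte D-11 and 11 without the NSN oocyte D-34, while 19 to 28 were higher when any 1 oocyte was left out. Scaling by totals shifted the median log2 fold change of all transcripts by -0.04. Of the 45, 39 were also called with it. When the 200 were chosen by mean SN level, 11 were lower and 41 higher, and when both stages counted equally, 12 were lower and 38 higher.

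The falls and rises were not spread evenly over the list. Among the 50 most abundant transcripts 9 were lower in SN and 3 higher, with a median log2 fold change of -0.06. Ranks 51 to 100 had 2 lower and 9 higher, ranks 101 to 150 had 1 and 8, and ranks 151 to 200 had 5 and 8, with medians of 0.04, 0.09 and 0.10. Choosing the list by the mean of both stages gave 8 lower and 4 higher in the first 50, and 0 lower and 15 higher in the last 50. Beyond the list, the next 200 in rank had 7 lower and 38 higher. By either choice, falls outnumbered rises only in the first 50 of the list. Over all transcripts tested, 8.07% were lower and 5.41% higher. Both choices used NSN levels, and a choice on high NSN values favours falls. Counts by rank were not made for a list by SN mean or with other scalings.

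**Figure D2:**
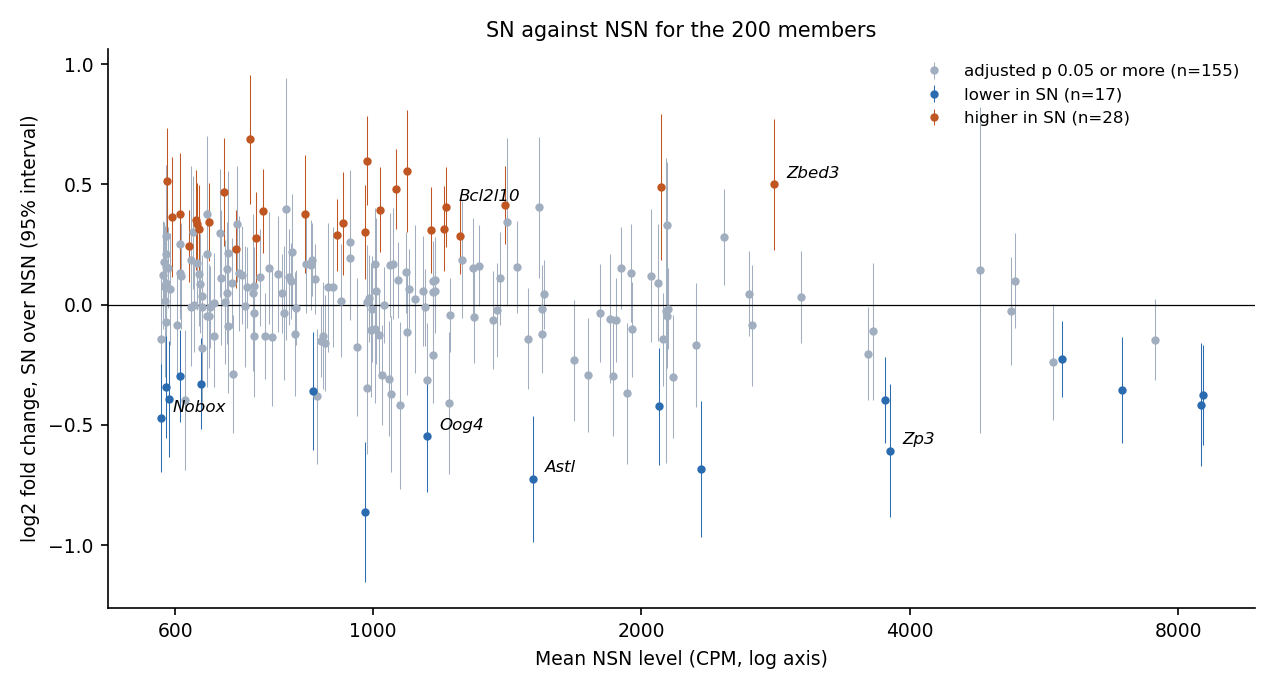
log2 fold change from NSN to SN with its 95% interval (y axis) against mean NSN level in CPM (x axis, log scale) for the 200 transcripts, with those lower in SN in blue (17), those higher in orange (28), the other 155 in grey, and symbols for the 6 named genes. All values lie between -0.86 and 0.69, and 9 of the 17 falls but 3 of the 28 rises are among the 50 most abundant transcripts.

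Within mouse C alone, 4 of the 200 were lower and 9 higher (against 2.93% and 1.52% of all transcripts tested there). Within mouse D, 8 were lower and 10 higher (against 3.44% and 0.932%). All 17 falls and all 28 rises had the same sign in both mice, and 4 of the 45 were called in each mouse separately. The 45 were called on the oocytes of both mice together, which favours the same sign in each. The shared sign is therefore a description and not a replication, and it was not counted over all transcripts. With stage in the model, 0 of the 200 differed between the mice (edgeR, 0.036% of all transcripts). At an unadjusted p under 0.05 there were 43 (21.5%, against 10.7% of all and 24.0% of the next 200 in NSN rank). DESeq2 called 9 (4.5%, against 0.484% of all) and edgeR without a filter on low counts called 2 (1.0%, against 0.187% of all). The next 200 in NSN rank also had 9 called by DESeq2. An interaction of stage with mouse was called for 0 of the 200 by edgeR (0.0% of all) and for 0 by DESeq2 (0.0% of all), with 19 and 22 at an unadjusted p under 0.05 (5.98% and 3.96% of all). With only the 6 SN oocytes inside the NSN range of totals, 8 of the 200 were lower (4.0%, against 4.5% of all) and 12 higher (6.0%, against 2.05% of all), so the share of falls was not above that of all transcripts.

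The 6 transcripts described by symbol all differed between the stages. Their symbols come from a list that the study chose on these same oocytes because they separate the stages, so their directions are not independent evidence. The named falls were Zp3, Astl, Oog4 and Nobox, and the named rises were Zbed3 and Bcl2l10. Positions below are those of the GENCODE gene in GRCm38, and all 6 are protein-coding.

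Zp3 (TCONS_00079540, rank 10, chr5:135980099-135988624, plus strand) encodes a glycoprotein of the zona pellucida to which sperm bind. Its level ranged from 2379 to 5052 CPM in NSN oocytes (median 3779) and from 1715 to 3916 CPM in SN oocytes (median 2192), with 3056 CPM in the intermediate oocyte. The stages overlapped, but 10 of the 16 SN values were under the whole NSN range. Mean levels were 3797 ± 875 CPM in NSN (SD, n = 9) and 2420 ± 604 CPM in SN oocytes (SD, n = 16). Its log2 fold change was -0.61 (SE 0.136), with an adjusted p of 0.00228 in edgeR's quasi-likelihood test. Within mouse C the value was -0.53 (adjusted p = 0.0699) and within mouse D -0.73 (adjusted p = 0.00728).

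Astl (TCONS_00057819, rank 45, chr2:127338639-127357651, plus strand) encodes ovastacin, the cortical granule protease that cleaves the zona protein ZP2 after fertilisation. It ranged from 1070 to 2113 CPM in NSN oocytes (median 1559) and from 622 to 1304 CPM in SN oocytes (median 876). Again the ranges met, with 12 of 16 SN oocytes below the lowest NSN oocyte and the intermediate oocyte, at 1424 CPM, inside the NSN range. Astl had the largest fall among the named genes, with a log2 fold change of -0.72 (SE 0.129, edgeR adjusted p = 0.000167).

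Nobox (TCONS_00087072, rank 200, chr6:43303674-43309554, minus strand) encodes an oocyte homeobox transcription factor needed for follicle formation. It ranged from 429 to 767 CPM in NSN oocytes (median 574) and from 317 to 608 CPM in SN oocytes (median 382), with 11 of 16 SN oocytes below the NSN range. Its log2 fold change was -0.47 (SE 0.111, edgeR adjusted p = 0.00326), and it went from rank 200 to rank 368, the lowest SN rank of the 200. Oog4 (TCONS_00075693, rank 68, chr4:143437164-143450324, minus strand) belongs to a multigene family of oocyte-specific leucine-rich repeat proteins, so its reads may be split among near-identical copies. It ranged from 795 to 1441 CPM in NSN (median 1129) and from 589 to 1064 CPM in SN oocytes (median 710), with a log2 fold change of -0.55 (standard error 0.115, edgeR adjusted p = 0.00126). For both genes the stages overlapped. Within mouse C and mouse D the log2 fold changes were -0.51 and -1.02 for Astl (adjusted p = 0.0636 and 0.000522), -0.35 and -0.63 for Nobox (0.192 and 0.0127) and -0.57 and -0.50 for Oog4 (0.0143 and 0.119), so that each was called in 1 of the mice.

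The 4 named genes that fell are shown with the reference sequence upstream of their start. As background, the oocyte factor FIGLA acts at E-boxes of zona genes, and the oocyte factor NOBOX acts at its own element. Whether either has a part in these falls was not tested. Each run holds 250 bases before and 50 after a RefSeq start (GRCm38.p6), written 5′ to 3′ on the gene's strand, with capitals marking an E-box (CANNTG, the same letters on both strands) or a NOBOX element (TAATTG, or CAATTA on the other strand), which do not overlap here. Astl has a pair of starts in the table, and both are given.
Zp3, chr5:135979855-135980154, plus strand: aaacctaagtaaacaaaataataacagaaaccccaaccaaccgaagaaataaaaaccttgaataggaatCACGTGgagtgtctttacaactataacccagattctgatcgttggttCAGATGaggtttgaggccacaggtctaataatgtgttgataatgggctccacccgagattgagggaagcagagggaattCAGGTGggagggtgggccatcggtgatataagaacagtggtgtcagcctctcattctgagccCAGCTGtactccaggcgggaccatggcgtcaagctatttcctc
Astl, first start, chr2:127338389-127338688, plus strand: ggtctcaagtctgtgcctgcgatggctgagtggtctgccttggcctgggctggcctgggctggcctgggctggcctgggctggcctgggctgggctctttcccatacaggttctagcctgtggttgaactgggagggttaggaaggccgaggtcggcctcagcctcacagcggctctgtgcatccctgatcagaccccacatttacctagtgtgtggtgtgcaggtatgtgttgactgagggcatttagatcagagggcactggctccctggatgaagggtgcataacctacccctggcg
Astl, second start, chr2:127341386-127341685, plus strand: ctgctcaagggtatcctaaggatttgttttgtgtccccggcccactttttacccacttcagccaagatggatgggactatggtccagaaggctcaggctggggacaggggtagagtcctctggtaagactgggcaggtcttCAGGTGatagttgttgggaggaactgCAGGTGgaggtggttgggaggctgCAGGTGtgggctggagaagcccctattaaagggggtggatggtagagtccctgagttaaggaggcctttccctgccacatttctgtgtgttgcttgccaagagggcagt
Oog4, chr4:143450275-143450574, minus strand: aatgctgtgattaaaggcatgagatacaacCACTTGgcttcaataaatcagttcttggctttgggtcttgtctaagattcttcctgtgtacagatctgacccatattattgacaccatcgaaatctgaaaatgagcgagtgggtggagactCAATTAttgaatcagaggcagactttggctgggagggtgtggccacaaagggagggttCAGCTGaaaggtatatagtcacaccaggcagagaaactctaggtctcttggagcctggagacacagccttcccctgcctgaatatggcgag
Nobox, chr6:43309505-43309804, minus strand: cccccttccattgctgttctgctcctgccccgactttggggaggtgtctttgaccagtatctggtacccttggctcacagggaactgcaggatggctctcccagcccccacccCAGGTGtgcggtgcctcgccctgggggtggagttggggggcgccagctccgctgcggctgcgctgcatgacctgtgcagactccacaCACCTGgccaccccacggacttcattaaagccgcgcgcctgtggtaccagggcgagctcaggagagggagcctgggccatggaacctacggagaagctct

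Zp3 had 4 E-box matches, Nobox 2, Oog4 2 with 1 NOBOX element, and Astl 3 at the second start and 0 at the first. An E-box match is common: 72.3% of the 32851 RefSeq promoters of this length hold at least 1, with a mean of 1.39 matches, and 8.0% hold the NOBOX element. The matches are letters in a window and do not show a bound site. Other forms of the NOBOX element were not searched, so a promoter without a match may still hold one. Of the named rises, Zbed3 also held E-box letters in each of its 3 RefSeq promoters.

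Zbed3 (TCONS_00028035, rank 15, chr13:95323612-95337841, plus strand) encodes a protein of the subcortical maternal complex, and the small RNA genes Snora47 and Gm22661 lie inside it on the same strand. It ranged from 2077 to 4287 CPM in NSN oocytes (median 2639) and from 2281 to 5184 CPM in SN oocytes (median 3892), with 4086 CPM in the intermediate oocyte. Most of the ranges coincided, and 5 of 16 SN oocytes lay above every NSN oocyte. The log2 fold change was 0.50 (SE 0.134, edgeR adjusted p = 0.00984). It was 0.69 within mouse C (adjusted p = 0.0115) and 0.24 within mouse D (adjusted p = 0.580), and the difference between the mice did not pass the interaction test (adjusted p = 0.837). Against the 6 SN oocytes inside the NSN range of totals its call was lost (adjusted p = 0.0623).

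Bcl2l10 (TCONS_00103674, rank 60, chr9:75347758-75351632, plus strand) encodes a BCL2-family protein that is prominent in oocytes. It ranged from 985 to 1381 CPM in NSN oocytes (median 1204) and from 1188 to 1919 CPM in SN oocytes (median 1519). In the intermediate oocyte it stood at 1618 CPM. Here 14 of 16 SN oocytes lay above the highest NSN oocyte. The log2 fold change was 0.41 (SE 0.0820, edgeR adjusted p = 0.000735), and it was 0.35 within mouse C (adjusted p = 0.0537) and 0.50 within mouse D (adjusted p = 0.0496).

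Among transcripts without a symbol, the best supported falls and rises were taken, 2 of each by adjusted p, and both falls were larger than both rises. TCONS_00107102 (rank 97) ranged from 522 to 1512 CPM in NSN oocytes (median 781) and from 393 to 717 CPM in SN oocytes (median 497), a log2 fold change of -0.86 (SE 0.144, edgeR adjusted p = 7.41e-05), which was the largest change of the 200. TCONS_00089785 (rank 19) ranged from 1480 to 4108 CPM in NSN (median 2080) and from 886 to 2246 CPM in SN oocytes (median 1358), a log2 fold change of -0.68 (standard error 0.139, edgeR adjusted p = 0.000793). Within mouse C the call of TCONS_00089785 was lost (-0.52, adjusted p = 0.0798), and within mouse D the value was -0.88 (adjusted p = 0.00739). In both transcripts, the NSN values spread upwards, and 9 and 11 of the 16 SN oocytes lay below the lowest of them. TCONS_00072599 (rank 94) ranged from 834 to 1248 CPM in NSN (median 970) and from 1047 to 1758 CPM in SN oocytes (median 1452), a log2 fold change of 0.60 (standard error 0.0906, edgeR adjusted p = 1.90e-05). TCONS_00023219 (rank 79) ranged from 901 to 1329 CPM in NSN (median 1017) and from 1159 to 1731 CPM in SN oocytes (median 1398), a log2 fold change of 0.48 (standard error 0.0815, edgeR adjusted p = 8.93e-05). For these rises, 13 and 12 of 16 SN oocytes lay above the NSN range.

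**Figure D3:**
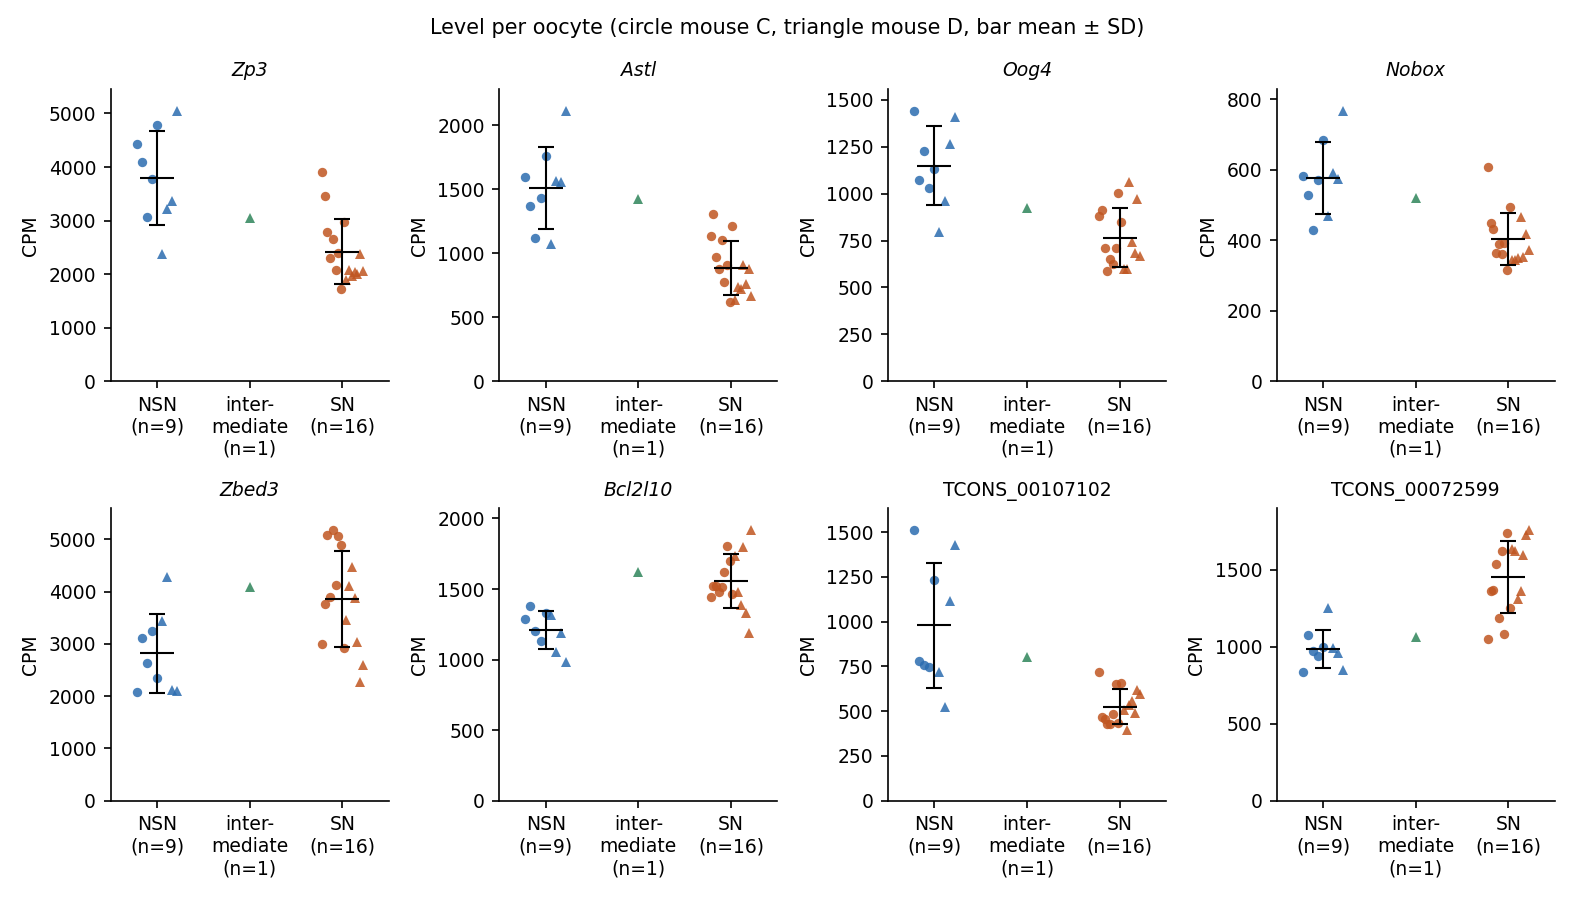
Level in CPM (y axes, from 0) of the 6 named genes, of TCONS_00107102 and of TCONS_00072599 in each NSN, intermediate and SN oocyte, with mean ± SD. Stages overlap in every panel; Astl has 12 of 16 SN oocytes below the lowest NSN oocyte and Bcl2l10 has 14 of 16 above the highest.

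Spread between oocytes was of similar size in both stages and no smaller than in the transcripts just below the list. The coefficient of variation of CPM had a median of 17.1% over the 200 in NSN oocytes and of 17.4% in SN oocytes, against 32.3% and 33.3% over all transcripts tested, whose counting error is larger (16.1% and 18.1%). The next 200 in NSN rank had medians of 15.8% and 15.6%. Over the 200 it ran from 5.40% to 63.3% in NSN and from 4.93% to 63.1% in SN oocytes. The SD of log2 CPM had medians of 0.27 and 0.26 (0.25 and 0.23 in the next 200), and it was larger in SN for 92 of 200 (46%), against 57.6% of all transcripts tested. In limma's test on absolute deviations from the stage median, 0 of the 200 differed in spread (0.0% of all). At an unadjusted p under 0.05, 7 were wider in NSN (1.49% of all) and 1 in SN (2.23% of all). On simulated data this test seldom reached the adjusted threshold, so the count of 0 does not show equal spread.

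Members that varied much in NSN oocytes also tended to vary in SN oocytes, with a Spearman correlation of the SDs of 0.633 over the 200. An SD above 0.5 was found for 9 in NSN and 5 in SN oocytes, 3 of them in both. The most even in NSN was TCONS_00071685, with 1002 to 1275 CPM (median 1180, SD of log2 CPM 0.08), which spread from 904 to 1441 CPM in SN oocytes (median 1159, SD 0.20). The most even in SN was TCONS_00058942, with 1379 to 1665 CPM (median 1474, SD 0.09), against 926 to 1508 CPM in NSN (median 1292, SD 0.22). Neither difference in spread passed the unadjusted threshold (p = 0.0747 and 0.0529, limma).

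**Figure D4:**
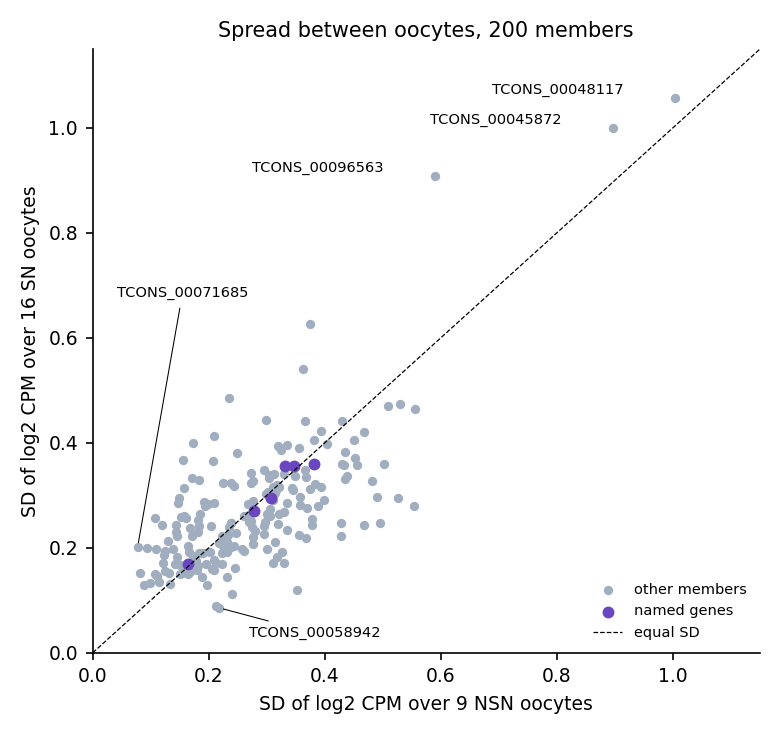
SD of log2 CPM over the 16 SN oocytes (y axis) against that over the 9 NSN oocytes (x axis) for each of the 200 transcripts, with the line of equal SD. Points lie on both sides of the line, 92 of 200 above it, and TCONS_00048117, TCONS_00045872 and TCONS_00096563 stand apart at the upper right.

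A few abundant transcripts varied far more than the rest. TCONS_00048117 (rank 9), the most variable in each stage, ranged from 1305 to 10479 CPM in NSN oocytes (median 4086, SD of log2 CPM 1.0) and from 682 to 12329 CPM in SN oocytes (median 4223, SD 1.06). Its log2 fold change of 0.14 had an SE of 0.335 and did not pass the test (adjusted p = 0.838), and in the intermediate oocyte it was the most abundant transcript of all, at 8854 CPM. TCONS_00045872, picked out after its values were seen, followed it from oocyte to oocyte: it ranged from 662 to 4097 CPM in NSN and from 336 to 4712 CPM in SN oocytes. The 2 transcripts rose and fell together, with r = 0.99 between their deviations from the stage means over 25 oocytes that share library scaling. The transcript least like TCONS_00048117 among the 200 was Oog4, with r = -0.77. Neither of the 2 variable transcripts followed depth closely (r = -0.19 and -0.11 with log2 total count within stages).

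Of the 4 named falls, Zp3, Astl and Nobox moved together within stages. Over the 25 oocytes, deviations of Zp3 correlated with those of Astl (r = 0.90) and of Nobox (r = 0.86), and those of Astl with Nobox (r = 0.87). Of the 200 transcripts, 15 had r above 0.8 with Zp3, so the pattern was not particular to these 3 genes. Oog4, the remaining fall, had r = 0.48, 0.41 and 0.43 with Zp3, Astl and Nobox. The median over all 19900 pairs of the 200 was 0.09, with a 5% to 95% range of -0.58 to 0.70, which holds the values of Oog4 but not those of the other 3 pairs. Depth moved with Zp3, Astl and Nobox: within stages they had r = 0.61, 0.49 and 0.48 with log2 total count, and SN totals reached lower than NSN totals. Their part in the stage difference was not tested. Against the 6 SN oocytes inside the NSN range of totals the log2 fold changes were -0.64, -0.75 and -0.51 (edgeR adjusted p = 0.0169, 0.00893 and 0.0193), and with every library downsampled to the smallest total they were -0.62, -0.75 and -0.51.

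The stages overlapped least along the third axis of variation among the 200. In a principal component analysis of their log2 CPM over the 26 oocytes, component 1 held 31.6% of the variance and overlapped over most of its range (-5.42 to 2.67 in NSN with a median of -1.04, and -4.44 to 3.17 in SN oocytes with a median of 1.36). TCONS_00048117 and TCONS_00045872 contributed most to it. Component 2 held 21.9%, with medians of -0.10 in NSN and 0.46 in SN oocytes. On it the intermediate oocyte lay at -4.06, below the lowest NSN oocyte (-2.56) and the lowest SN oocyte (-3.10). Component 3, with 10.6%, ran from -3.76 to -0.40 in NSN and from -0.46 to 3.09 in SN oocytes, so that the stages overlapped only at their edges, and the intermediate oocyte lay at 0.16, among the SN oocytes. Within stages, component 1 had r = -0.46 with log2 total count and component 3 had r = 0.33, each over 25 oocytes.

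**Figure D5:**
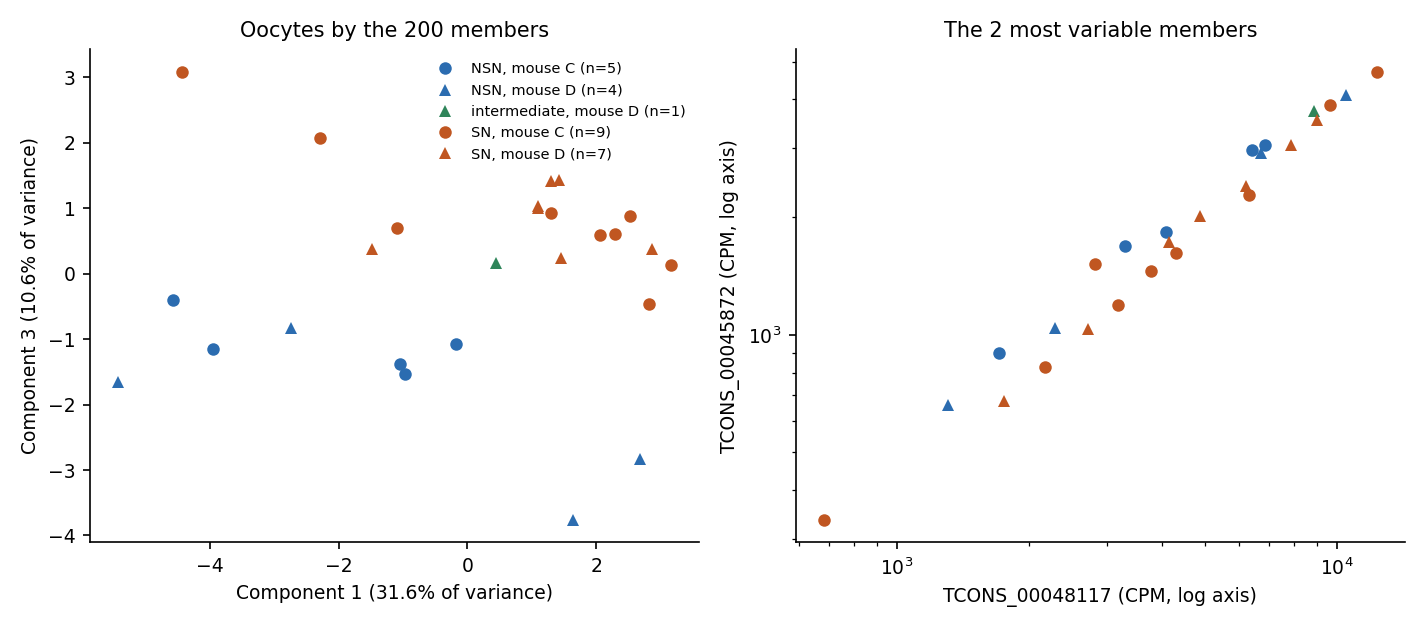
Left, components 1 and 3 of the 200 transcripts (31.6% and 10.6% of variance) for each oocyte: stages overlap widely along component 1, with medians of -1.04 in NSN and 1.36 in SN, while component 3 runs from -3.76 to -0.40 in NSN and from -0.46 to 3.09 in SN oocytes. Right, levels of TCONS_00048117 (x axis) and TCONS_00045872 (y axis) in CPM on log axes, where oocytes of all stages follow 1 line.

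The intermediate oocyte, a single oocyte with no replicate, could only be placed by value. It lay within the NSN range for 141 of the 200 transcripts and within the SN range for 170, the SN range being drawn from more oocytes, and outside both for 17. Of the 45 transcripts that differed between stages, it lay between the stage means for 23, beyond the NSN mean for 5 and beyond the SN mean for 17. Among the 17 falls it was nearer to NSN for 11, and among the 28 rises it was nearer to SN for 19. Over all 200 it was nearer to NSN for 102 and to SN for 98. The difference between falls and rises was not tested, as it rests on 1 oocyte.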

How the data were processed

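RNA of 26 single GV oocytes was compared. The authors trimmed reads with Trim Galore, aligned them to GRCm38 with HISAT2 2.1.0, used SeqMonk to count them over an oocyte transcriptome assembled earlier, left out oocytes that clustered apart, and deposited raw counts per transcript without normalization. Strand use in the counting is not given in the sources used here. Columns of the authors' own comparison (mean level, log2 fold changes, p-values) were not used. Samples were grouped by the stage in their labels.

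The 200 transcripts, the lists and the tests were chosen with earlier results of these data known. A transcript was tested if 9 or more oocytes had 3 or more counts of it (16657 of 38540). The 9 NSN and 16 SN oocytes were compared by the quasi-likelihood test of edgeR 4.0.16 after TMM scaling, with stage as the term and a Benjamini-Hochberg threshold of 0.05. The intermediate oocyte was left out of tests. Spread was tested with limma 3.58.1 on absolute deviations of log2 CPM (prior count 2). Shares were compared by two-sided exact permutation tests enumerating all 2042975 splits of the 25 oocytes. DESeq2 1.42.0, other scalings, filters, depths and lists, each mouse alone and each oocyte left out served as alternatives. The edgeR tests of stage, mouse and interaction, the DESeq2 test of stage and the limma test of spread were tried on simulated data. The permutation tests and the other alternatives were not. R 4.3.3, Python 3.11.15, numpy 2.4.6 and pandas 2.3.3 were used.

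Transcripts named in the text are those with a symbol among 366 names from the study's supplement, the 3 highest, the 2 falls and 2 rises without a symbol of smallest adjusted p, the 2 on each side of the list's end, the extremes of spread, and the narrowest interval within -0.5 to 0.5. TCONS_00045872 and TCONS_00096563 were added after their values were seen. One transcript that this rule takes is not reported here.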

Additional observations from a re-analysis of the deposited data

Results flagged for a closer look

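Of 22 groups of values examined for a single far oocyte, 1 was marked: TCONS_00089785 reached 4108 CPM in the NSN oocyte D-34, where the next NSN oocyte had 2689 CPM, a gap of 0.54 of the NSN range. Chance marks about 1 in 20 such groups. Without this oocyte the log2 fold change of TCONS_00089785 was -0.54 (edgeR's quasi-likelihood test, adjusted p = 0.00297), still lower in SN. Over the whole list, 4 of the 200 transcripts had a far NSN oocyte of this kind.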

How the results depend on the processing

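Of the 200 transcripts, 45 differed between NSN and SN oocytes, 17 lower and 28 higher in SN. Scaling by library totals gave 28 lower, and no filter on low counts gave 17 higher. Fewer oocytes gave 13 (4 lower, 9 higher) within mouse C, 18 (8 and 10) within mouse D and 20 (8 and 12) with SN oocytes in the NSN depth range, where 4.5% of all transcripts were lower and 2.05% higher. A list by SN mean had 11 lower. The 100 highest gave 23 (11 and 12) and the 500 highest 116 (28 and 88). A list chosen in mouse C and tested in mouse D gave 18 (7 and 11), and the reverse 13 (3 and 10). Leaving out 1 oocyte gave 30 to 59 in all, 11 to 31 lower and 19 to 28 higher, with D-34, D-11 and C-13 moving the falls most. Against 0 members that differed between the mice, DESeq2 gave 9 (0.484% of all transcripts) and no filter 2 (0.187%). The share of each oocyte's own 200 differed by -0.744 points, and passed the threshold with the own 10 (-0.928), 50 (-1.15) or 100 (-1.07), 10 and 50 being chosen after seeing the data. Leaving out 1 oocyte gave -0.916 to -0.548, and 5 of these omissions passed. The cause of these changes was not tested, beyond fewer oocytes or transcripts. No named transcript that was called changed sign under the alternatives run. Of 646 values for transcripts taken by the naming rule, 32 lost their call. The 646 include transcripts not called in the main test, such as TCONS_00075578 and TCONS_00048117, which had no call to lose. No paired analysis was possible because each oocyte number marks a separate cell, but both mice gave both stages, and with mouse as a term 47 were called (19 and 28). Counting error of the 200 was small (medians 2.01% and 2.19%), the part of library depth in the stage differences was not tested, and the tests rest on 9 NSN oocytes of 2 mice.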

Other observations

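TCONS_00096563, picked out after its values were seen, was the third most variable of the 200. It ranged from 446 to 1439 CPM in NSN oocytes (median 661) and from 230 to 1934 CPM in SN oocytes (median 930), and its deviations from the stage means had r = -0.13 with those of TCONS_00048117 over 25 oocytes. In mouse D its log2 fold change from NSN to SN passed the test (edgeR adjusted p = 0.0451) and in mouse C it did not (adjusted p = 0.998), and a difference between the mice in this transcript was not called by the interaction test.

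Within stages, deviations of Bcl2l10 had r between -0.24 and 0.10 with those of the other 5 named genes over 25 oocytes that share library scaling.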
